A study of Mus musculus with 10 samples.

Results

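The SLC25 genes encode a family of membrane carriers, most of them in the inner mitochondrial membrane, and their transcripts were followed in mouse heart muscle cells that carried dnMKL1, the dominant-negative version of MKL1, a coactivator of transcription. The members were taken by name, as every gene whose symbol starts with Slc25a and whose base mean was above 0. The base mean is a gene's count after scaling for library depth, averaged over all libraries. This gave 43 of 17371 genes with a base mean above 0. Slc25a48 was listed at 0 and left out. Cardiomyocytes of wild-type mice were compared in 5 GFP and 5 dnMKL1 libraries, each a biological replicate. All mice received AAV9 virus at 5e+08 viral genomes per gram on postnatal day 1, which carried GFP alone or dnMKL1 with GFP behind the cTNT (cardiac troponin T) promoter. Cells were collected on postnatal day 14 by collagenase perfusion and fluorescence-activated sorting. Both groups thus carried the virus, and the cells of both came through the same sort.

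The inner membrane of the mitochondrion is nearly closed to charged metabolites, and each SLC25 carrier moves a small set of them across it. In heart muscle the most used routes are the exchange of ADP for ATP, the import of phosphate, the entry of fatty acids as acylcarnitines, and the malate-aspartate shuttle, which brings the reducing power of cytosolic NADH to the respiratory chain. Other members carry citrate, amino acids, iron, glutathione, nucleotides and vitamins made into cofactors.

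The deposited file compares the groups and holds no values per library, so each gene is given by a mean for each group and by the error of its fold change. The group means, called implied means here, follow from its base mean and fold change. Positive log2 fold changes mean higher expression in dnMKL1 libraries, a direction read from Mkl1, which the authors' deposited table lists at 9.80 (SE 0.15) on the log2 scale. A gene is said to have risen or fallen where its adjusted p in the authors' deposited table was under 0.05. Estimated totals ran from 8803028 to 17228616 counts per library. The cardiomyocyte markers were abundant, with a base mean of 594986 for Myh6 in the authors' deposited table. Of these markers 5 of 8 were lower, their implied means summing to 1404520 in GFP and 764540 in dnMKL1 libraries. Over all genes tested 17.4% were lower, and 70.7% of those with a base mean of at least 10000. All of these markers but Nkx2-5 were that abundant. Of the fibroblast markers 3 of 7 were higher, with summed implied means of 3195 and 4424, and of the mural markers 2 of 6, Cspg4 and Myh11, with 1422 and 3100. Of these mural sums Cspg4 alone held 501 under GFP and 2019 under dnMKL1, and the 4 mural markers besides Cspg4 and Myh11 did not pass. Over all genes tested 16.6% were higher. Of 7 endothelial markers 0 passed the Wald test, at the adjusted or the unadjusted p of 0.05, with sums of 2533 and 2628, and of 7 macrophage markers 1 was higher, with sums of 146 and 131. Of 6 adipocyte markers 2 were higher, Cidea and Dio2. Adipoq and Lep were listed at 0, and Plin1 had a base mean of 0.073 in the authors' deposited table. Cebpa had -1.54 (SE 0.91) on the log2 scale in the authors' deposited table and did not pass. The erythroid genes Hba-a1 and Hba-a2 were listed at 0. Other erythroid markers were detected: the beta globin gene listed as Beta-s had implied means of 46.3 under GFP and 67.7 under dnMKL1, and Alas2, the red cell form of the first heme enzyme, 6.22 and 7.52. Neither passed, and the erythroid markers summed to 54.8 and 76.5. What part these other cells had in the values of the carriers was not tested. In bulk libraries, fewer cells of a type and less RNA per cell cannot be told apart.

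Of the 43 carriers, 40 had an adjusted p-value, and 21 of these passed, 5 higher and 16 lower in dnMKL1 libraries. That is 52.5% of the tested carriers, with 12.5% higher and 40.0% lower. Over all 14056 genes tested, 34.1% passed, 16.6% higher and 17.4% lower. The median log2 fold change of the tested carriers was -0.070, against 0.021 over all genes. The abundant members fell most often. Of 13 carriers with a base mean of at least 1000, 9 fell and 2 rose, where 55.8% of all tested genes that abundant passed, 13.7% higher and 42.1% lower. Their median log2 fold change was -0.58, against -0.15 over all genes of that level. Of the 40 tested carriers, 4 (10.0%) passed with an absolute log2 fold change of 1 or more, against 6.7% of all tested genes.

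The split by direction depended on the scaling. Setting both groups to the same total count raised every log2 fold change by 0.29, enough to turn values between -0.29 and 0 positive, and moved the median of all genes whose base mean was at least 10 from 0.0041 to 0.29. It gave 14 carriers higher and 7 lower in place of 5 and 16. Over all genes the share of calls that were higher then went from 48.8% to 86.0%. A core of 12 calls held under both scalings, in the same direction: the falls of Slc25a3, Slc25a4, Slc25a11, Slc25a12, Slc25a20, Slc25a22 and Slc25a46, and the rises of Slc25a1, Slc25a23, Slc25a25, Slc25a30 and Slc25a39.

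**Figure D1:**
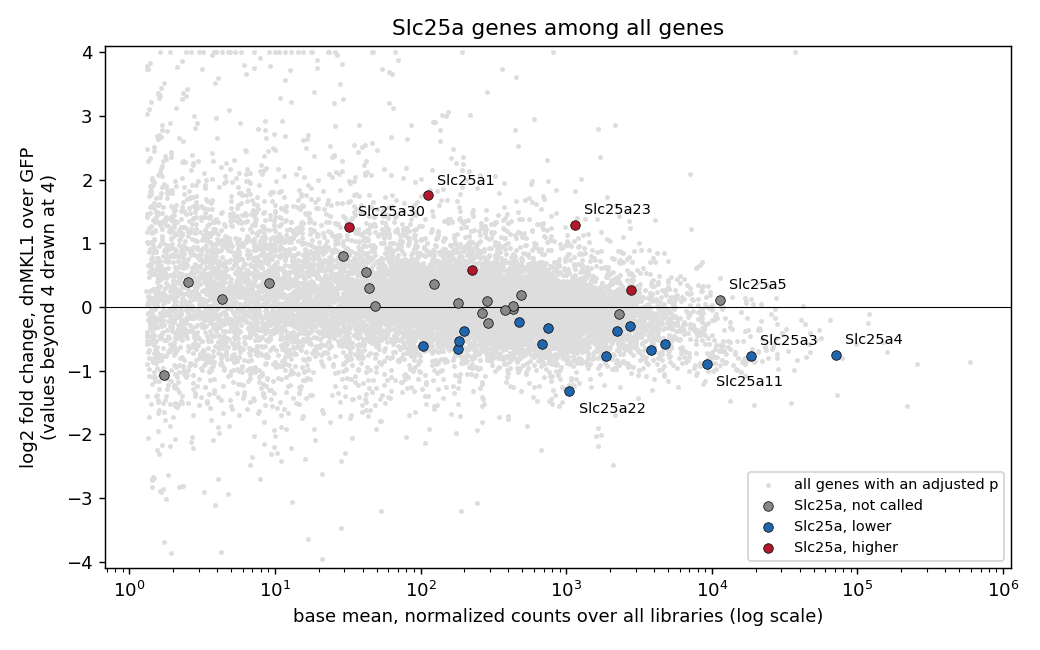
Log2 fold change of each gene in the authors' deposited table (vertical axis) against its base mean in normalized counts (horizontal axis, log scale), with values beyond 4 drawn at 4. Grey dots are all 14056 genes tested and circled points are the 40 tested Slc25a genes, blue where lower, red where higher and dark grey where not called; 9 of the 13 with a base mean of at least 1000 are blue, 7 of them also under scaling to the same total.

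Slc25a4 encodes the main ADP/ATP carrier of heart and muscle, which exchanges cytosolic ADP for ATP made in the matrix. It lies on chromosome 8 from 46206797 to 46211284 (GRCm38, minus strand). Its implied mean was 90084 normalized counts under GFP and 53301 under dnMKL1. This was 1.69-fold lower in dnMKL1 libraries (95% interval 1.39 to 2.05), with a log2 fold change of -0.76 (SE 0.14) and an adjusted p of 1.5e-06 in the authors' deposited table. Slc25a5, the ADP/ATP carrier of most other tissues, lies on chromosome X from 36795651 to 36798807 (plus strand). Its implied means were 10903 and 11783, and the authors' deposited table put its log2 change at 0.11 (SE 0.09, adjusted p = 0.39). The interval of that change, from -0.071 to 0.29, lay above the interval of Slc25a4, from -1.04 to -0.48. The difference between the paralogs was not tested. Under scaling to the same total Slc25a5 was higher, at 0.40 (adjusted p = 8.6e-05), while Slc25a4 stayed lower at -0.47 (adjusted p = 0.0033).

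Counted together, Slc25a4 held 89.2% of the implied counts of the ADP/ATP carriers in GFP libraries and 81.9% in dnMKL1 libraries, and Slc25a5 held 10.8% and 18.1%. Per kilobase of the longest annotated transcript, the level of Slc25a4 was 5.32 times that of Slc25a5 under GFP and 2.91 times under dnMKL1. The germ cell paralog Slc25a31 was near the floor in both groups, at 4.12 and 4.48 normalized counts. Reads of near-identical copies, such as the annotated pseudogene Slc25a5-ps, may be split between loci, and how the counting treated them is not given in the sources used here.

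Both promoter windows are shown because these paralogs do the same job and their values parted. They are RefSeq windows on GRCm38.p6, from 250 bases before the annotated start to 50 from it, at chr8:46211013-46211312 (minus strand) and chrX:36795347-36795646 (plus strand). These RefSeq starts differ from those of GENCODE, the source of the gene locations. The window of Slc25a5 ends before its GENCODE start at 36795651, and the window of Slc25a4 includes its GENCODE start at 46211284. Capitals mark each CCAAT box (CCAAT) and GC box (GGGCGG), on either strand.
Slc25a4: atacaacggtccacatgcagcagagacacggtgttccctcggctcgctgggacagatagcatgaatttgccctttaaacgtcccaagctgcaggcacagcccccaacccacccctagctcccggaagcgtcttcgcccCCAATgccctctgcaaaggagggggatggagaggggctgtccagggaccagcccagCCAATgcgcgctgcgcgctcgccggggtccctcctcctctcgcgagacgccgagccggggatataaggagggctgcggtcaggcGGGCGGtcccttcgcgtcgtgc
Slc25a5: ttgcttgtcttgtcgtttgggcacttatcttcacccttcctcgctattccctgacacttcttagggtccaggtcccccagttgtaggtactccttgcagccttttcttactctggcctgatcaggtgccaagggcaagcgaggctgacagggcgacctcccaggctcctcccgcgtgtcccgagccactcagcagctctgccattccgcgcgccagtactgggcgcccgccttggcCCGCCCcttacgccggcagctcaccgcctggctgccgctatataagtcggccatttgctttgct
The window of Slc25a4 held CCAAT boxes at -112 to -108 and at -56 to -52 from the start. Its GC box lay after the start, at 29 to 34. The window of Slc25a5 held a GC box before the start, at -14 to -9, and no CCAAT box. Across the family, windows of 33 of 43 members were searched, and 28 of these had a GC box and 18 a CCAAT box. The other 10 members were not searched, so their promoters are not covered by any of these counts. Of all 27025 genes in the table, 38.2% had a GC box and 41.1% a CCAAT box. The letters TATAAA were found in 2 of the 33, and in 15.7% of all genes.

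Slc25a3 carries the phosphate that ATP synthase joins to ADP. It lies on chromosome 10 from 91116574 to 91124059 (minus strand). Its implied mean went from 23186 under GFP to 13677 under dnMKL1, 1.70-fold lower (95% interval 1.49 to 1.93). The authors' deposited table gave a log2 fold change of -0.76 (SE 0.09) with an adjusted p of 5.3e-14. Slc25a3 and Slc25a4, which deliver both substrates of ATP synthase, thus fell by nearly the same factor. Of 9 partner genes for the F1 part of ATP synthase and for energy transfer, 8 fell and 0 rose, with a median log2 fold change of -0.67. Of these, 5 had a base mean of at least 10000 and all 5 fell, as did Slc25a3 and Slc25a4, while 70.7% of all genes at that level fell. Atp5a1, the alpha subunit of the catalytic head, had -0.80 (SE 0.10) in the authors' deposited table. For Ckmt2, the creatine kinase between the membranes, it was -0.99 (SE 0.16) in the authors' deposited table, and for Ppif, a regulator of the permeability pore, -1.07 (SE 0.17). The 3 outer membrane channels, through which these metabolites pass first, all fell, with -0.53 (SE 0.08) for Vdac1, -0.49 (SE 0.08) for Vdac2 and -0.58 (SE 0.07) for Vdac3 in the authors' deposited table. Each had a base mean of at least 1000, a level at which 42.1% of all tested genes fell.

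Of the 4 carriers of ATP-Mg against phosphate, 3 had an adjusted p-value, of which 2 rose and 0 fell, where 16.6% of all tested genes rose. These 3, Slc25a23, Slc25a24 and Slc25a25, load the matrix with adenine nucleotides when cytosolic calcium rises. Slc25a23 had the smallest p-value of the family, at an adjusted p of 3.3e-37 in the authors' deposited table. Its implied mean went from 672 under GFP to 1642 under dnMKL1, 2.44-fold higher (95% interval 2.14 to 2.79), a log2 fold change of 1.29 (SE 0.10) in the authors' deposited table. Slc25a25 went from 179 to 269, with 0.58 (SE 0.18) and an adjusted p of 0.0046 in the authors' deposited table. Slc25a24, at 21.3 and 37.1, had 0.80 (SE 0.41) in the authors' deposited table and did not pass (adjusted p = 0.12), though it passed under scaling to the same total (1.09, adjusted p = 0.019). Slc25a41 was at or under 3 normalized counts in both groups. Together the 4 genes summed to 873 implied counts in GFP and 1949 in dnMKL1 libraries. Slc25a23 shares 168 exon bases with the antisense gene Gm17168 and Slc25a25 shares 379 with Naif1, whose log2 fold change was -0.073 in the authors' deposited table. Without strand, reads of such partners cannot be told apart.

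The promoter of Slc25a23 is shown because MKL1 acts through SRF, which binds the CArG box. Of the 33 members searched, only Slc25a23 had that box in its window. Its window lies on chromosome 17 at chr17:57059814-57060113 (minus strand, RefSeq on GRCm38.p6), and the gene lies on the minus strand from 57043711 to 57059863. Capitals mark the CArG box only, searched on both strands, at -184 to -175 from the annotated start.
Slc25a23: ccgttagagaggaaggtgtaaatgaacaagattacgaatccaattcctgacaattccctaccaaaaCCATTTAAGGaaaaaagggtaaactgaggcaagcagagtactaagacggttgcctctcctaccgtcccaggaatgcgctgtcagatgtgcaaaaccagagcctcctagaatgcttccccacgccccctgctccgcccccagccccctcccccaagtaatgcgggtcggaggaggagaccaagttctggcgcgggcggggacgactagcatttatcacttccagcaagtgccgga
The same CArG box lay in the window of the other listed start of Slc25a23, at -205 to -196. Over all genes in the table, 1.81% had a CArG box in such a window. The element of the estrogen-related receptors (TNAAGGTCA, both strands), regulators of mitochondrial genes, was in 0 of 33 members' windows and in 1.43% of all genes' windows. A match describes the letters and was not tested for binding.

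**Figure D2:**
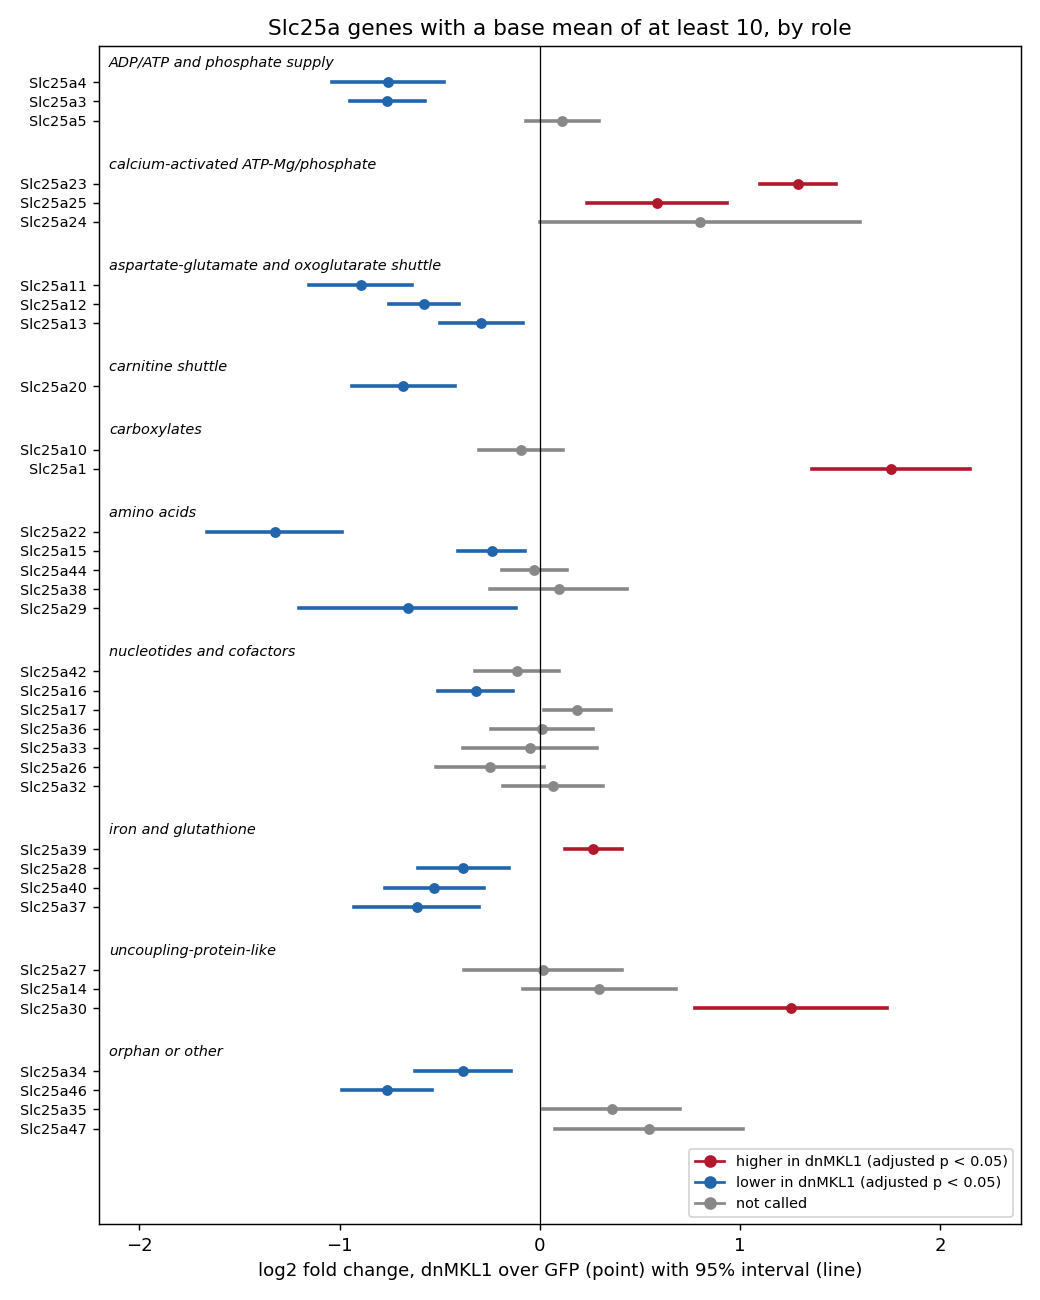
Log2 fold change, dnMKL1 over GFP, in the authors' deposited table (points) with its 95% interval (lines) for 35 of the 36 Slc25a genes whose base mean was at least 10, grouped by role and ordered by level within a role. Red and blue mark genes that rose and fell at an adjusted p under 0.05, by the authors' scaling, and grey the others; Slc25a1, at 1.75, and Slc25a22, at -1.32, lie farthest to either side.

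The malate-aspartate shuttle runs on the oxoglutarate carrier Slc25a11 and on the aspartate-glutamate carriers Slc25a12 (aralar) and Slc25a13 (citrin), both of which sense cytosolic calcium. All 3 fell under the authors' scaling, and each had a base mean of at least 1000, a level at which 42.1% of all tested genes fell. Slc25a11 went from an implied mean of 12078 under GFP to 6496 under dnMKL1, 1.86-fold lower (95% interval 1.56 to 2.22), with -0.89 (SE 0.13) and an adjusted p of 2.3e-10 in the authors' deposited table. It lies on chromosome 11 from 70644196 to 70647479 and shares 189 exon bases with Rnf167 on the other strand, whose log2 fold change was -0.062 in the authors' deposited table. Slc25a12 went from 5669 to 3796, with -0.58 (SE 0.09) and an adjusted p of 1.9e-09 in the authors' deposited table. Slc25a13, the form best known from liver, went from 3023 to 2470, with -0.29 (SE 0.11) and an adjusted p of 0.020 in the authors' deposited table. Scaling to the same total left Slc25a13 at -0.0031 (adjusted p = 0.99). Per kilobase, the level of Slc25a12 was 0.922 times that of Slc25a13 under GFP and 0.755 times under dnMKL1. These ratios rest on the longest annotated transcripts, of 6351 bases for Slc25a12 and 3121 for Slc25a13.

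Of 7 enzymes of the NADH shuttles, on either side of these carriers, 5 fell and 0 rose, with a median of -0.52. Here 3 of the 5 had a base mean of at least 10000, the level at which 70.7% of all genes fell. Got1 and Got2, the cytosolic and matrix aspartate aminotransferases, had -0.92 (SE 0.10) and -0.79 (SE 0.10) in the authors' deposited table. It was -0.80 (SE 0.10) for the matrix malate dehydrogenase Mdh2 in the authors' deposited table. The glycerol phosphate shuttle is the other route for cytosolic NADH, and its enzymes Gpd1 and Gpd2 did not pass, with -0.18 (SE 0.15) and -0.22 (SE 0.11) in the authors' deposited table. Gpd1l, also among the 7 enzymes, fell, with -0.46 (SE 0.08) and an adjusted p of 2.1e-07 in the authors' deposited table. Its base mean was near that of Gpd1, at 1513 against 1494.

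Slc25a20 exchanges acylcarnitine for free carnitine, the step by which long-chain fatty acids enter the matrix. It lies on chromosome 9 from 108662088 to 108684641. Its implied mean was 4709 under GFP and 2938 under dnMKL1, 1.60-fold lower (95% interval 1.34 to 1.92), with -0.68 (SE 0.13) and an adjusted p of 2.4e-06 in the authors' deposited table. The enzymes of the same shuttle split: 2 of 6 fell and 2 rose, with a median of -0.050 that turned to 0.24 under scaling to the same total. On the matrix side, Cpt2 and Crat had -0.79 (SE 0.10) and -0.90 (SE 0.11) in the authors' deposited table. On the outer membrane, Cpt1a, the isoform best known from liver and fetal heart, rose by 0.86 (SE 0.12) in the authors' deposited table, and Cpt1b, the muscle isoform, had -0.095 (SE 0.13) and did not pass (adjusted p = 0.65). Cpt1b was counted at a low level here, with a base mean of 166 against 2452 for Cpt1a in the authors' deposited table.

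Slc25a1 carries citrate out of the matrix, where the cytosolic enzyme Acly splits it to supply acetyl groups for lipid synthesis. It had the largest rise of the 21 called carriers. Its implied mean went from 51.8 under GFP to 175 under dnMKL1, 3.37-fold higher (95% interval 2.57 to 4.43). The authors' deposited table gave a log2 fold change of 1.75 (SE 0.20) with an adjusted p of 2.0e-16. The gene lies on chromosome 16 from 17925223 to 17928219. Acly rose too, by 0.64 (SE 0.11, adjusted p = 1.2e-07) in the authors' deposited table. Of the other carboxylate carriers, Slc25a10, which moves malate and succinate, had implied means of 272 and 255 and did not pass. Slc25a21, an oxodicarboxylate carrier, was at or under 3 in both groups and had no adjusted p-value.

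Among the amino acid carriers, Slc25a22, which takes glutamate into the matrix, had the largest fall of the called carriers. Its implied mean was 1506 under GFP and 601 under dnMKL1, a fall of between 1.98-fold and 3.16-fold by its 95% interval, with -1.32 (SE 0.17) and an adjusted p of 5.7e-13 in the authors' deposited table. It lies on chromosome 7 from 141429744 to 141437892. Its paralog Slc25a18 was at or under 3 in both groups. Glutamate dehydrogenase, Glud1, fell by 0.38 (SE 0.07) in the authors' deposited table. The ornithine carrier Slc25a15 went from 512 to 433 and the basic amino acid carrier Slc25a29 from 223 to 141, and both fell, with adjusted p-values of 0.017 and 0.0495 in the authors' deposited table. Neither call held at an adjusted p under 0.01 or under scaling to the same total, where Slc25a15 reversed to 0.048. Slc25a44, for branched-chain amino acids, and Slc25a38, for the glycine used in heme synthesis, had values of -0.028 (SE 0.08) and 0.094 (SE 0.17) on the log2 scale in the authors' deposited table and did not pass. The first enzymes after them were lower, Bcat2 with -0.36 (SE 0.12) and Alas1 with -1.25 (SE 0.18) in the authors' deposited table.

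The iron carriers both fell under the authors' scaling, while 19.3% of all tested genes with a base mean from 100 to under 1000 fell. Slc25a37 (mitoferrin-1), the form best known from red cell precursors, went from 125 to 81.5 implied counts, with -0.62 (SE 0.16) and an adjusted p of 6.6e-04 in the authors' deposited table. Slc25a28 (mitoferrin-2), the broadly expressed form, went from 225 to 173, with -0.38 (SE 0.12) and an adjusted p of 0.0043 in the authors' deposited table. Scaling to the same total left both below 0 and ended both calls, at -0.33 (adjusted p = 0.078) and -0.093 (adjusted p = 0.54). The part of red cell RNA in the value of Slc25a37 was not tested. Fech, which puts iron into heme, had -0.34 (SE 0.07) in the authors' deposited table.

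The glutathione carrier Slc25a39 and its paralog Slc25a40 went opposite ways. Slc25a39 rose from 2539 to 3057, 1.20-fold (95% interval 1.09 to 1.33), with 0.27 (SE 0.07) and an adjusted p of 0.0013 in the authors' deposited table. Slc25a40 fell from 216 to 150, with -0.53 (SE 0.13) and an adjusted p of 2.0e-04 in the authors' deposited table. The rise held under scaling to the same total and the fall did not (-0.24, adjusted p = 0.11). Per kilobase the level of Slc25a39 was 31.2 times that of Slc25a40 under GFP and 54.0 times under dnMKL1.

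Of the 8 carriers of nucleotides and cofactors, 0 rose under the authors' scaling. Slc25a16, tied to the matrix supply of coenzyme A, fell. It went from 831 to 665, with -0.32 (SE 0.09) and an adjusted p of 0.0034 in the authors' deposited table. This call ended under scaling to the same total. The carriers described next did not pass. The most abundant of them was Slc25a42, which imports coenzyme A, at 2405 and 2222 implied counts. The pyrimidine nucleotide carriers Slc25a33 and Slc25a36 were at 385 and 372, and at 429 and 433. Slc25a26, for S-adenosylmethionine, was at 315 and 265, and the folate and flavin carrier Slc25a32 at 178 and 186, while the one-carbon enzyme Mthfd2 rose by 2.78 (SE 0.28) in the authors' deposited table. Slc25a17, a carrier of the peroxisome, was at 460 and 524, with 0.19 (SE 0.09) and an adjusted p of 0.078 in the authors' deposited table. Under scaling to the same total Slc25a17, Slc25a32 and Slc25a36 were higher, and Slc25a26, Slc25a33 and Slc25a42 turned positive without passing.

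Of the carriers related to uncoupling proteins, Slc25a30 rose from 19.1 to 45.5 implied counts, 2.38-fold (95% interval 1.71 to 3.33), with 1.25 (SE 0.25) and an adjusted p of 3.6e-06 in the authors' deposited table. Slc25a14 and Slc25a27 had 0.30 (SE 0.19) and 0.015 (SE 0.20) in the authors' deposited table and did not pass, though Slc25a14 was higher under scaling to the same total. The uncoupling proteins themselves belong to the same family under other symbols. Ucp3, the muscle form, had -0.81 (SE 0.21, adjusted p = 8.5e-04) in the authors' deposited table, and Ucp2 had 0.16 (SE 0.14, adjusted p = 0.42). Ucp1, the brown fat form, had a base mean of 0.063 in the authors' deposited table. The family members Mtch1 and Mtch2 of the outer membrane parted, with 0.30 (SE 0.12) and -0.47 (SE 0.07) in the authors' deposited table. The table lists 2 further carriers under older symbols, Mcart1 (Slc25a51, for NAD) with -0.49 (SE 0.23, adjusted p = 0.092) and Mcart6 (Slc25a53) with 0.36 (SE 0.58, adjusted p = 0.71) in the authors' deposited table.

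Of the members without a settled substrate, Slc25a46, an outer membrane protein of mitochondrial shape, went from 2378 to 1401, 1.70-fold lower (95% interval 1.45 to 1.99), with -0.76 (SE 0.12) and an adjusted p of 9.6e-10 in the authors' deposited table. Slc25a34 went from 2547 to 1954, with -0.38 (SE 0.12) and an adjusted p of 0.0074 in the authors' deposited table, a call that ended under scaling to the same total. Its paralog Slc25a35, at 108 and 138, and Slc25a47, at 34.4 and 50.2, did not pass (adjusted p = 0.10 and 0.063 in the authors' deposited table), though both were higher under scaling to the same total. Slc25a35 shares 1151 exon bases with Rangrf on the other strand, which had -0.89 in the authors' deposited table. In all, 13 members share exon bases with another gene, 12 of them on the opposite strand only. The 7 members with a base mean under 10 were Slc25a2, Slc25a18, Slc25a21, Slc25a31, Slc25a41, Slc25a43 and Slc25a45, and 0 of the 4 with an adjusted p-value passed, nor did any have an unadjusted p under 0.05.

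**Figure D3:**
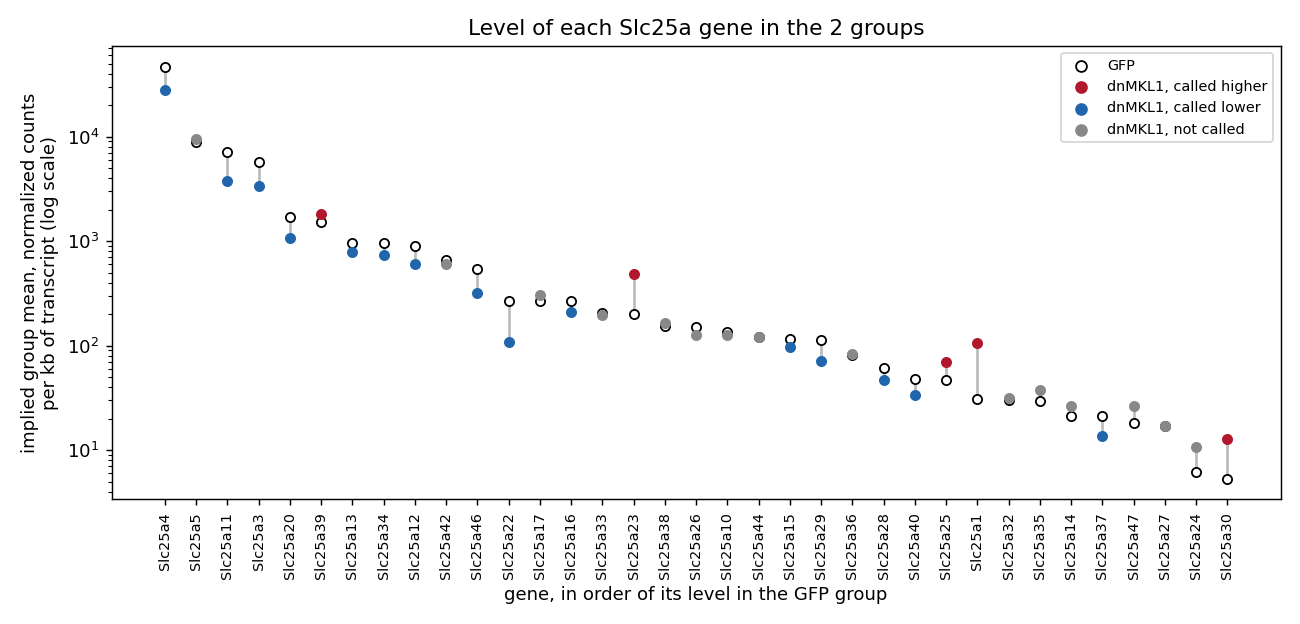
Implied mean of 35 of the 36 Slc25a genes whose base mean reached 10, in normalized counts per kilobase of its longest transcript (vertical axis, log scale), in order of its level under GFP. Open circles are GFP, filled points dnMKL1, coloured by call; Slc25a4 stands above the rest at 46797 and 27689, and Slc25a39 and Slc25a20 change places.

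Per kilobase, Slc25a4 led in both groups, at 46797 normalized counts in GFP and 27689 in dnMKL1 libraries. It was followed by Slc25a5 at 8793 and 9502, Slc25a11 at 7059 and 3797, and Slc25a3 at 5740 and 3386. Next under GFP was Slc25a20 at 1712 and then Slc25a39 at 1507, and under dnMKL1 Slc25a39 at 1814 and then Slc25a20 at 1068. Which neighbours in this order differ beyond the spread between libraries cannot be given without values per library. The order also rests on the longest annotated transcripts, of 4039 bases for Slc25a3, 1240 for Slc25a5 and 1711 for Slc25a11. Without division by length Slc25a3 was above both, with a base mean of 18431 against 11343 for Slc25a5 and 9287 for Slc25a11. Which transcripts these cells express was not tested.

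Summed over the 43 carriers, the implied means were 167922 in GFP and 111120 in dnMKL1 libraries, a log2 ratio of -0.60. Expressed as a share of all counts, the family took 1.26% under GFP and 1.02% under dnMKL1, so that it was lower under both scalings. Slc25a4 alone took 0.676% and 0.488%. The 4 most abundant members together, Slc25a3, Slc25a4, Slc25a5 and Slc25a11, took 1.02% and 0.781%. The other 39 members took 0.238% and 0.237%. Among the 4, Slc25a5 went the other way, from 0.0818% to 0.108%, and Slc25a3, Slc25a4 and Slc25a11 together went from 0.940% to 0.673%.

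Transport through the inner membrane also uses proteins of other families. Of 12 such transporters 6 fell and 1 rose, with a median of -0.32. The pyruvate carrier subunits Mpc1 and Mpc2, listed as Brp44l and Brp44, had -0.48 (SE 0.15) and -0.83 (SE 0.15) in the authors' deposited table. Abcb10, a transporter of the heme pathway, had -0.65 (SE 0.08) in the authors' deposited table, and Letm1, an ion exchanger, had -0.58 (SE 0.10). Sfxn3, of the serine carrying sideroflexins, rose by 1.53 (SE 0.29) in the authors' deposited table, from a low level. Of 5 genes of the calcium uniporter complex 2 fell and 0 rose, among them the pore Mcu, listed as Ccdc109a, with -0.81 (SE 0.11) in the authors' deposited table. Of 9 enzymes that use carried substrates 4 fell and 2 rose, the latter being Acly and Mthfd2. For comparison, 17.4% of all tested genes fell, or 42.1% of those with a base mean of 1000 or more and 70.7% of those with one of 10000 or more.

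**Figure D4:**
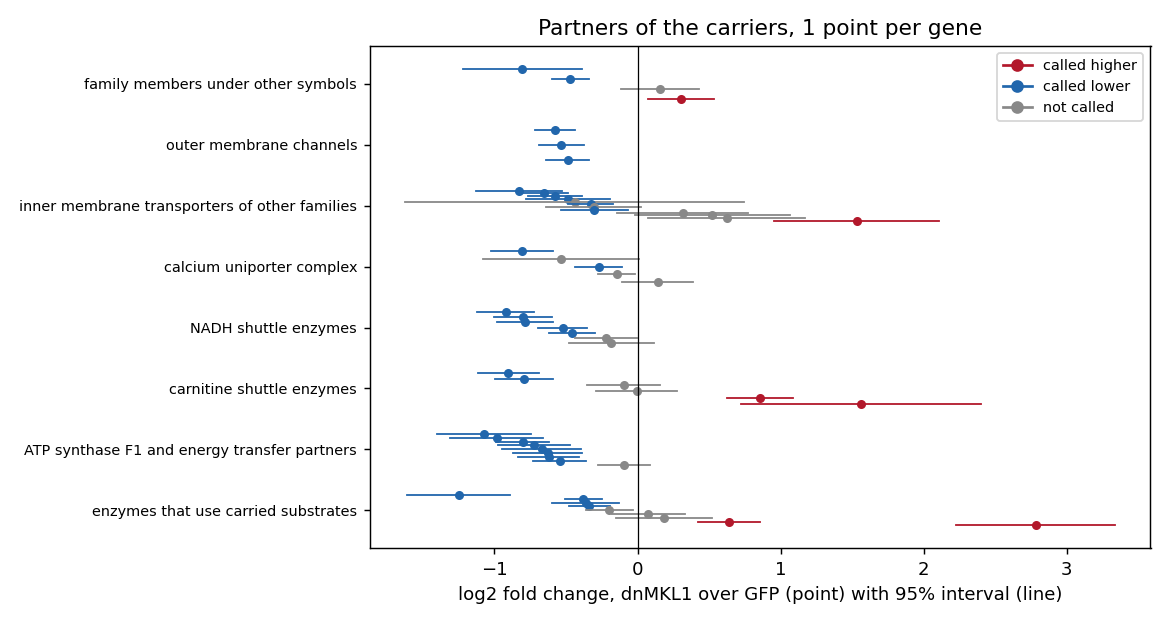
Log2 fold change, dnMKL1 over GFP, in the authors' deposited table (points) with its 95% interval (lines) for genes that work beside the carriers, 1 row of points per list. Blue genes fell, red genes rose and grey genes did not pass; all 3 outer membrane channels and 8 of 9 genes of ATP synthase and energy transfer are blue.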

How the data were processed

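RNA of sorted cardiomyocytes was reverse transcribed and amplified with a SMART-Seq kit from 10 ng, over 8 PCR cycles, per the labels' protocols. Per the submitters' processing notes the tools were STAR 2.5.3a and featureCounts (Subread 1.5.2), with build mm10. Annotation and use of strand are not given in the sources used here. The one table holds the authors' comparison, in the form DESeq2 writes. Its deposited base mean is a signal in normalized counts. The deposited fold change and its SE are log2 values, their quotient, the Wald statistic, is a deposited score, and the deposited p-value is two-sided with Benjamini-Hochberg adjustment over 14056 genes.

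A test on counts per library had been planned; the table holds none, so the authors' adjusted p under 0.05 was used. Wald statistics and adjusted p-values were recomputed (largest gaps 1.1e-05 and 1.4e-07). Implied means take the base mean as the average of 2 equal groups. Intervals of 95% are normal, from the SE. Size factors were read off the base means of genes seen as a single read, and totals estimated from them. They cover counting only, and the spread measured is that between these libraries. Scripts (Python 3.11.15, pandas 2.3.3) were tested on simulated data. Lengths, exon overlaps and locations came from GENCODE M21 (GRCm38), where 43 of 43 symbols matched, and promoters from RefSeq. Named were the carriers with a base mean of at least 10 (1 of these and 1 partner gene are not reported here), the others by name, and of each partner list up to 3 called genes with the smallest p plus those set beside a carrier. Members and lists were chosen with earlier results of these data known, and motifs and printed promoters after the values were seen. Alternatives were the adjusted p of 0.01 or 0.1, minimum base means of 10 or 100, minimum log2 fold changes of 0.5 or 1, adjustment over all p-values, scaling to the same total and median-centring.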

Additional observations from a re-analysis of the deposited data

How the results depend on the processing

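No paired analysis was possible because the table holds no values per library. For the same reason the fits that leave out 1 library and the other count tools were not run, and whether 1 library decides a value is unknown. The 21 calls became 18 at an adjusted p under 0.01 (without Slc25a13, Slc25a15 and Slc25a29), 23 under 0.1, 20 with adjustment over all p-values (without Slc25a29) or base means of 100 or more, and 15 with an absolute log2 fold change of at least 0.5. With one of at least 1, 4 were left, since fewer genes can pass. Median-centring changed no call of the 36 carriers with a base mean of at least 10. Scaling to the same total kept 14 of these 36, ended 9 calls, made 9 others and reversed 6 log2 fold changes, by the shift of every gene: Slc25a10 to 0.20, Slc25a15 to 0.048, Slc25a26 to 0.038, Slc25a33 to 0.24, Slc25a42 to 0.17 and Slc25a44 to 0.26, of which Slc25a44 then passed (adjusted p = 0.0049). The carriers' median turned from -0.070 to 0.22, and was -0.25 for base means of 100 or more; their summed log2 ratio went from -0.60 to -0.31. Under that scaling the list medians were -0.24 for outer membrane channels, -0.028 for other inner membrane transporters (-0.53 for base means of 100 or more), -0.23 for NADH shuttle enzymes and -0.38 for ATP synthase and energy transfer. They turned positive for family members under other symbols (0.13), the calcium uniporter complex (0.017), carnitine shuttle enzymes (0.24) and enzymes that use carried substrates (0.090). Which scaling is closer to RNA per cell was not tested. Low depth limits the 7 carriers with a base mean under 10.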
